A study of Mus musculus with 2 samples.

Results

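The 47 mouse genes described here encode the machinery that forms autophagosomes, proteins of the lysosome, and TFEB and TFE3, transcription factors that control both. They were chosen by symbol: a probe belonged to a gene when the gene name in the scanner files equalled that symbol, and the gene took the value of its brightest probe among those well above background on both arrays. All 47 of 37074 named targets were found, with 100 probes, and all 47 had at least 1 probe well above background on both arrays by the scanner software's flag. Of these genes 2 are TFEB-family factors, 25 belong to the autophagy core and 20 are lysosomal.

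The study compared mouse cells given an agent labelled S180 with mouse cells given DMSO, the solvent control. Each group was 1 total RNA sample, labelled with Cy3 and hybridised to 1 array in a single colour. No genotype, strain, cell type, dose or time of exposure was given in the labels, nor what S180 is. There are no replicates, so none of the differences described could be tested between conditions.

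Autophagy encloses cell contents in a double membrane. The ULK1 kinase complex starts the process, the PIK3C3 lipid kinase complex marks the site, and enzymes related to the ubiquitin pathway attach LC3 and GABARAP proteins to the growing membrane. The closed autophagosome fuses with the lysosome, whose acid hydrolases digest the cargo. When nutrients are scarce, TFEB and TFE3 enter the nucleus and bind the CLEAR element, a sequence around the core CACGTG, at promoters of lysosomal and autophagy genes. MITF, the melanocyte member of the family, binds closely related sequences, and melanosomes are themselves related to lysosomes.

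Because these factors act at promoters, the sequence from 250 bases before to 50 bases after each transcription start was searched. A table of RefSeq promoter sequences (build GRCm38.p6) was used, which held 40 of the 47 genes. The core TCACGTG, read on both strands, was present for 10 of the 40, against 4.29% of all 27025 genes in that table. The lysosomal genes held 7 of the 10 and the autophagy core 3, and neither factor had a match. The longer palindrome, GTCAC followed by its reverse complement, contains that core and was present in 0 of the 40 and in 0.37% of all genes. The bare CACGTG, also contained in the longer forms, was present in 12 of 40, against 8.09% of all genes. A match is a description of the letters, not a binding site. The match nearest the start of each of the 10 genes is shown in 30 bases, 5′ to 3′ in the direction of transcription, with the matched core in capitals (8 letters where both strands match):

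Ctsa, chr2:164833766-164833795: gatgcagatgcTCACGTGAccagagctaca

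Ctsd, chr7:142387908-142387937: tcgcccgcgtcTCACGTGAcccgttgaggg

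Gla, chrX:134601182-134601211: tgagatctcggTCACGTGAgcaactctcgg

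Glb1, chr9:114401018-114401047: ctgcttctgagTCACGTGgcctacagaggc

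Gaa, chr11:119267811-119267840: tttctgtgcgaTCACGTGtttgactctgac

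Lamp1, chr8:13159134-13159163: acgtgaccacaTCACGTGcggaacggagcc

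Mcoln1, chr8:3500462-3500491: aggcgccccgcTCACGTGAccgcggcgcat

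Atg3, chr16:45158746-45158775: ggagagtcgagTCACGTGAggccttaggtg

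Atg7, chr6:114670952-114670981: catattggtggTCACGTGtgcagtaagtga

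Atg14, chr14:47568417-47568446: aaacaaaatccCACGTGActggccctgagc

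Lamp1 held 4 matches, the most of the 10, and Atg3, Ctsa, Ctsd, Gla and Mcoln1 held 2 each. The match in Atg14 began at the base before the transcription start, and the one in Ctsa began 4 bases after it.

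Values are log2 processed signals minus the array's 75th percentile, called the scaled signal, and a difference is S180 minus DMSO on that scale. A processed signal is the spot's brightness after the scanner software removed trends in background and in intensity across the array. The arrays lay on 1 slide and were read in 1 scan, signals well above background were found for 60.6% to 61.9% of gene spots, and no spot was saturated. The error between spots came from probes printed 10 times. The SD of a difference between single spots was 0.042 for bright genes, the upper of 3 groups of equal size by signal (262 probes). It was 0.072 for the middle group (6 probes) and 0.27 for the dim group (10 probes). That error leaves out the culture, the RNA preparation and the labelling. Of the 47 genes 33 were bright, 14 were in the middle group and none was dim. In RNA from a whole culture, fewer cells of a kind and less RNA per cell cannot be told apart.

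No cell type was labelled, so markers of several were read. All 6 melanocyte markers (Tyr, Tyrp1, Dct, Pmel, Mlana and Sox10) were well above background on both arrays. Their summed signal, in units of the array's 75th percentile, was 1204 with S180 and 1071 with DMSO. Tyr (-0.01) and Sox10 (-0.12) were lower in S180. The other 4 were higher (0.14 to 0.26), with scaled signals of 7.96 to 8.45 with S180. Genes of a signal like that of Lamp1 (7.76 with S180) had a median difference of 0.19. Of 9 macrophage markers 7 were measured, summing to 10.9 and 9.81, although the median of their differences was -0.11 and 4 of the 7 were lower in S180. Itgam, the brightest of them, was higher (2.94 and 2.68) and Lyz2 lower (-5.27 and -4.43), while Adgre1 and Tyrobp were not well above background on both arrays. For fibroblasts 5 of 6 were measured (2.29 and 3.31), for neurons 3 of 5 (16.0 and 13.8) and for lymphocytes 3 of 5 (0.43 and 0.40). Epithelial markers were measured for 2 of 5 (0.07 and 0.10), without Krt8, Krt18 and Krt19, and endothelial markers for 1 of 4, Pecam1. The part of these markers in the differences below was not tested.

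None of the 47 lysosome and autophagy genes was 1.5-fold apart between the arrays in either direction. Few of all measured genes were either, so the count of 0 does not set the 47 apart. Of the 20781 measured genes 3.08% passed 1.5-fold as higher in S180 and 1.71% as lower, with 1.66% and 0.101% of the bright ones and 2.08% and 1.15% of the middle group. The widest differences were 0.47 for Atg9a, or 1.39-fold higher in S180, and -0.19 for Atg3, or 1.14-fold lower. The median of the 47 was 0.09, or 1.06-fold, beside 0.00 for all measured genes. Of the 47 genes 34 (72.3%) lay above the median gene, beside 50% of all measured genes, 52.3% of the bright ones and 43.1% of those in the middle group. With normexp background correction 27 of the 47 lay above the median gene, and the median lay 0.03 above that of all genes in place of 0.09. On a scale set by 8 spike-in transcripts, the median of all measured genes was -0.35 and 46 of the 47 were lower in S180, so that the direction of a single gene here holds only relative to the other genes.

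**Figure D1:**
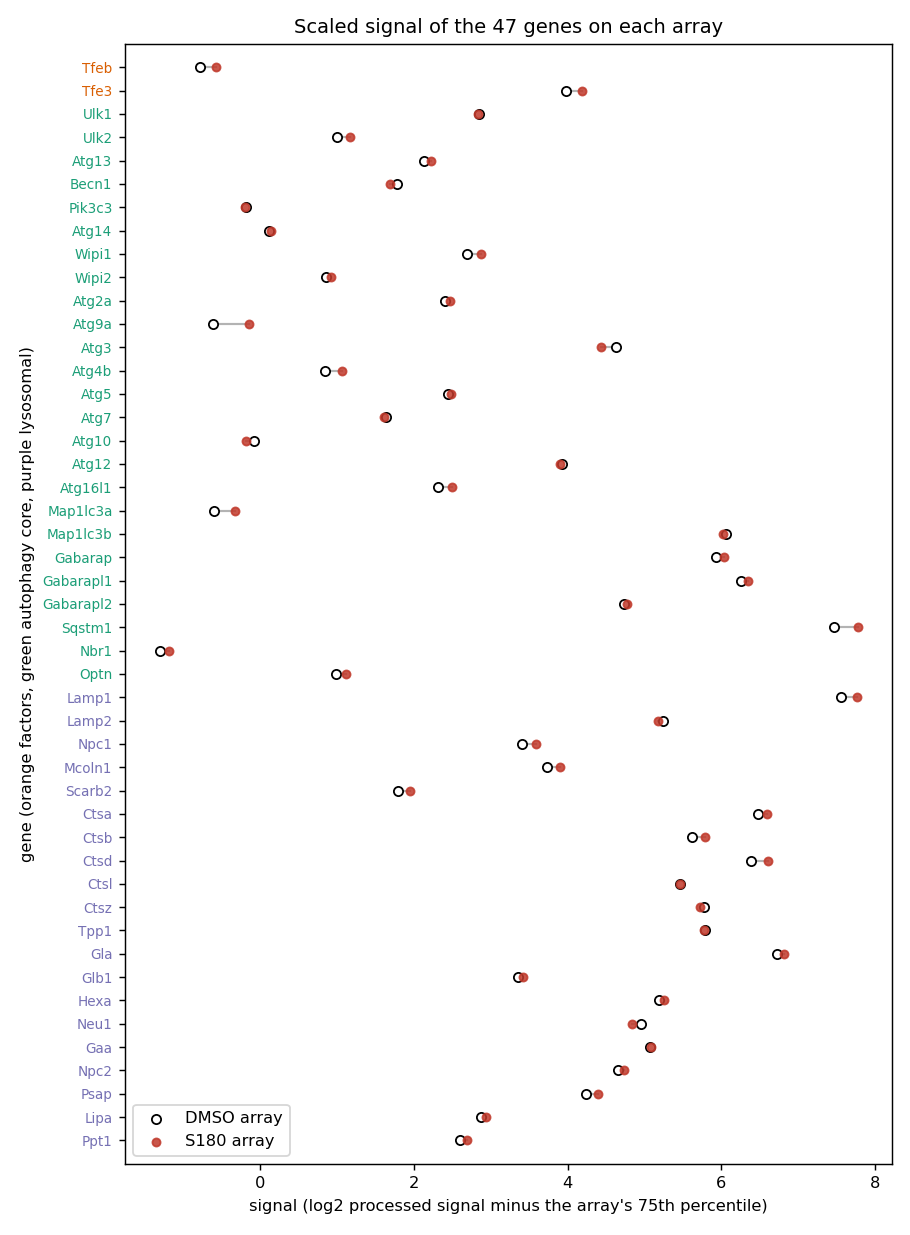
Scaled signal (log2 processed signal minus the array's 75th percentile) of each of the 47 genes on the DMSO array (open circles) and the S180 array (filled circles), with a line joining both. Most pairs nearly coincide, and the longest line is that of Atg9a, from -0.61 on the DMSO array to -0.14 on the S180 array. Signals of different probes are not comparable as levels.

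At a 1.2-fold threshold, chosen after the values were seen, 3 of the 47 were higher in S180 and 0 were lower, against 15.1% and 11.8% of all measured genes, 8.76% and 3.78% of the bright ones and 11.8% and 13.4% of the middle group. The 3 were Atg9a, Sqstm1 and Map1lc3a, all of the autophagy core. Differences over 2 SD of a difference between single spots were found in 22 genes that were higher and 2 that were lower (Atg3 and Neu1), with 23 within that error. With quantile normalization 18 were higher and 6 lower, the added ones being Ctsz, Lamp2, Map1lc3b and Tpp1. In the main setting 48.5% of 33 bright members were higher by that measure and 6.06% lower, beside 32.8% and 26.1% of all bright genes. Of the 14 in the middle group 42.9% were higher and 0% lower, beside 22.8% and 29.4% of all genes in that group. Such shares of all genes were not computed for the other settings. The autophagy core had a median of 0.07 (17 of 25 above 0) and the lysosomal genes 0.08 (15 of 20 above 0). Above 0 were also 10583 of all 20781 measured genes, 3696 of 6927 bright ones and 3040 of 6927 in the middle group. The difference between the class medians was -0.015, under the spot error of a single gene. The classes also differed in signal, with median scaled signals of 2.23 and 5.13 with S180, and the part of signal was not tested. With quantile normalization the lysosomal median was 0.04 with 11 of 20 above 0, and it lay below that of the autophagy core by 0.006. The median of the 2 factors was 0.22, which rests on the upstream Tfeb probe described below. With the mean of each gene's probes it was 0.24, from 0.12 for Tfeb and 0.37 for Tfe3. It was 0.12 with the median of each gene's probes and 0.01 with the next brightest Tfeb probe.

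**Figure D2:**
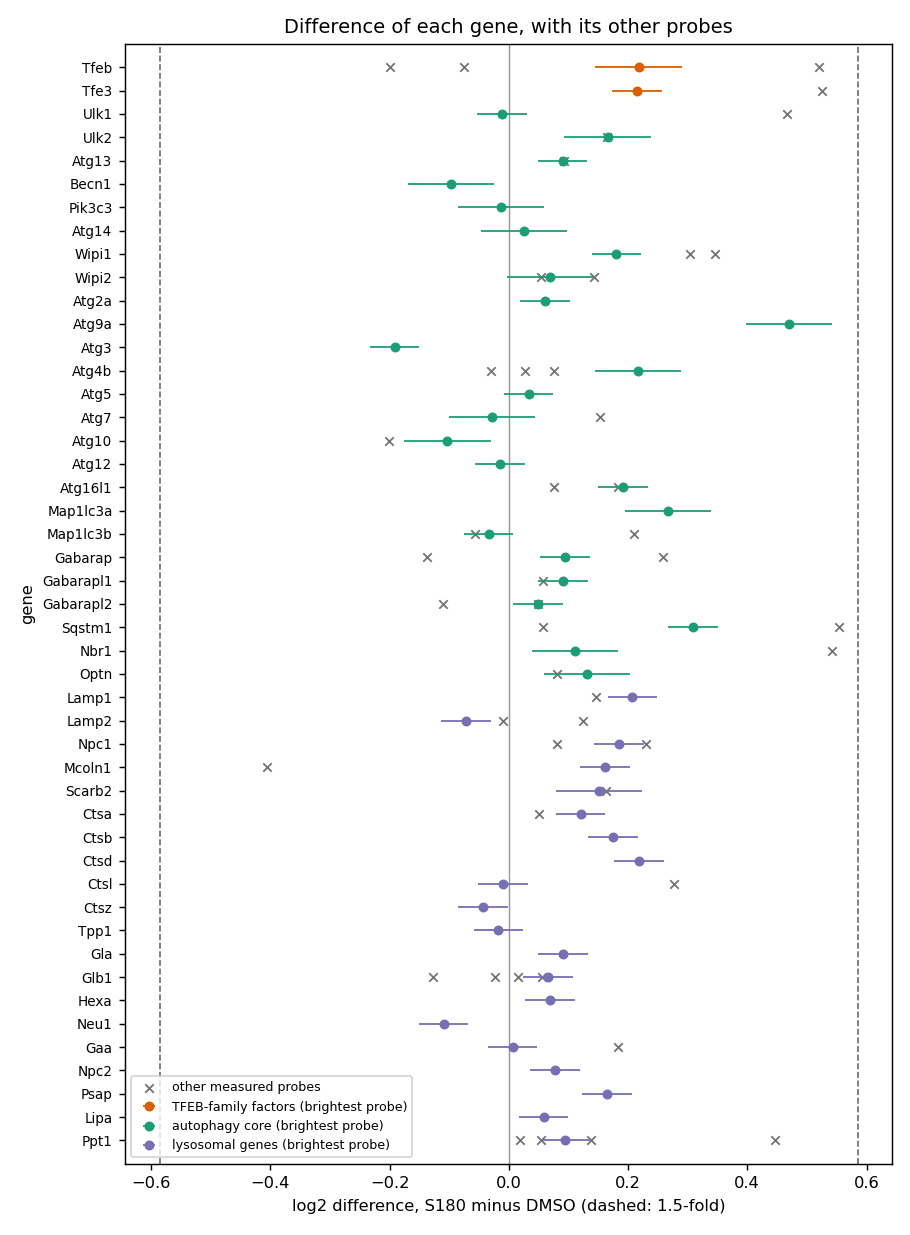
Log2 difference, S180 minus DMSO, of each gene on its brightest probe (filled circles, coloured by class, bars ± 1 SD of a difference between single spots) and on its other measured probes (crosses). No circle or cross reaches the dashed lines at 1.5-fold, and the crosses of Tfeb, Sqstm1 and Mcoln1 lie far from each other or from the circle.

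Tfeb and Tfe3 gave nearly the same difference. Tfeb, the factor most studied as a master regulator of lysosomal genes, had a scaled signal of -0.57 with S180 and -0.78 with DMSO, a difference of 0.22. Tfe3, which shares its target sequences, had 4.19 and 3.98, also 0.22. Both values were about 1.16-fold higher in S180, and both were beyond 2 SD of the spot error. For Tfe3 the other measured probe, with processed signals of 31.1 and 26.2, gave 0.53.

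The 4 probes of Tfeb did not give 1 direction. Their first 30 of 60 bases are shown because the probe that stands for the gene lies far from the others, in their order along chromosome 17 (positions of whole probes on build mm9, as for all probes here):

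Tfeb upstream probe, chr17:47896359-47896418: atcagtcctctagtatgctgctgaccctct

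Tfeb probe 2, chr17:47924977-47925036: gcccctgtctagcagccacctgaacgtgta

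Tfeb probe 3, chr17:47926621-47926680: ggaacaaaggcaccatcctcaaggcctctg

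Tfeb probe 4, chr17:47929089-47929148: tggaggacattttggagaaggaggtacaag

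The upstream probe was designed on a predicted RefSeq transcript and lies 28618 bases before the next. It was the brightest of the 4, with processed signals of 415 with S180 and 434 with DMSO. Probe 3, with 303 and 422, gave a difference of -0.20, and probe 4, with 201 and 257, gave -0.07. Probe 2 was dim (35.5 and 30.1) and gave 0.52, within 2 SD of the spot error of the dim group. Of the 2 probes further along that were not dim, probe 3 was thus lower in S180 beyond 2 SD of the spot error and probe 4 lay within it, while the upstream probe was higher. With the next brightest probe in place of the upstream one, an alternative chosen after the values were seen, the median of both factors was 0.01 in place of 0.22.

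Mitf and Tfec, the other genes of this family, are not among the 47. Mitf had scaled signals of 6.59 and 6.49, a difference of 0.10. Tfec was dim, with processed signals of 14.5 with S180 and 24.8 with DMSO, a difference of -0.49. Other regulators of the pathway spread more widely. Zkscan3, a zinc finger repressor of autophagy genes, was 1.52-fold lower in S180 (-0.71 and -0.11), and Foxo3, a forkhead factor that activates autophagy genes, was 1.28-fold higher (1.82 and 1.46).

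In the initiation complex Ulk1, the kinase that starts autophagy, had scaled signals of 2.84 with S180 and 2.85 with DMSO, a difference of -0.01. Its other probe was dim and gave 0.47. Ulk2, the related kinase, differed by 0.17 on its brightest probe and by 0.16 on the other. Atg13, the adaptor of the complex, differed by 0.09 on each of its probes. Of the lipid kinase complex, Becn1 (beclin 1) had 1.69 and 1.78, a difference of -0.10. Pik3c3, the catalytic subunit, differed by -0.01 and Atg14, the subunit specific to autophagosomes, by 0.03. None of the last 3 genes lay beyond 2 SD of the spot error.

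The proteins that bring or sense membrane lay above 0 in all 4 genes. Atg9a, the lipid scramblase whose vesicles seed the autophagosome, was -0.14 with S180 and -0.61 with DMSO, the difference of 0.47 given above. This rests on 1 probe, on chromosome 1 from 75184260 to 75184319. Atg9a was the 1 gene of the 47 that stayed above 0 on the spike-in scale (0.11). Wipi1, which binds the lipid that PIK3C3 makes, was 2.87 and 2.69, a difference of 0.18, and its dimmer probes gave 0.30 and 0.34. Wipi2, the related reader, differed by 0.07 and Atg2a, a lipid transfer protein, by 0.06.

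The conjugation enzymes went both ways. Atg3, the enzyme that transfers LC3 to its lipid, had 4.44 with S180 and 4.63 with DMSO, a difference of -0.19. It was the lowest of the 47 in the main setting and in all 13 other settings. Atg10, the corresponding enzyme for Atg12, differed by -0.10, with -0.20 on its other probe. Atg7, which activates both, differed by -0.03, but its other probe, with processed signals of 1241 and 1357, gave 0.15. Atg12 differed by -0.01 and Atg5, its partner, by 0.03. Higher were Atg4b, the protease that processes LC3, at 0.22 (1.07 and 0.85), and Atg16l1, which places the complex on the membrane, at 0.19 (2.50 and 2.31). For Atg4b the 3 other probes gave -0.03 to 0.08, so that this value belongs to 1 probe of 4. The 2 brightest Atg16l1 probes gave 0.19 and 0.08.

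Among the LC3 and GABARAP proteins, which coat the autophagosome and dock receptors, the widest difference was that of Map1lc3a. It had -0.33 with S180 and -0.59 with DMSO, a difference of 0.27 from its only probe. Map1lc3b, the form used most as an autophagy marker, had 6.02 and 6.06, a difference of -0.03. The dimmer Map1lc3b probes gave -0.06 and 0.21. Gabarap differed by 0.09, Gabarapl1 by 0.09 and Gabarapl2 by 0.05, each on its brightest probe. With quantile normalization these were 0.01, -0.02 and 0.02, and the dimmer Gabarap probes gave -0.14 and 0.26.

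Sqstm1, which encodes the receptor p62 and carries ubiquitinated cargo to LC3, was 7.77 with S180 and 7.46 with DMSO. The difference was 0.31, or 1.24-fold. The 285 measured genes whose mean signal lay within 0.5 of its own had a median difference of 0.18, and the difference of Sqstm1 was 0.10 with quantile normalization. Its 3 probes are shown because their differences grow along the transcript, which runs toward lower positions on chromosome 11:

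Sqstm1 probe 1, chr11:50015985-50016044: tgtcttcaaaagaagtggacccatctacag

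Sqstm1 probe 2, chr11:50013670-50013729: cacaggacccccatgtagcttcctctgact

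Sqstm1 probe 3, chr11:50012868-50012927: accccgttaccctgacctgataaatcccat

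Probe 1 had processed signals of 14461 with S180 and 16883 with DMSO, a difference of 0.06. Probe 2, the brightest, gave 0.31, at a signal where the median gene was higher by 0.18. Whether position along the gene has a part in these differences was not tested. Probe 3, with signals of 342 and 283, gave 0.55, or 1.47-fold, the highest of any measured probe of the 47 genes. The other receptors differed less on their brightest probes. Nbr1, which acts with p62, differed by 0.11, and 0.54 on a dim probe (processed signals 54.4 and 45.4), and Optn (optineurin) by 0.13.

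Of the lysosomal membrane genes Lamp1, an abundant glycoprotein of the limiting membrane, was 7.76 with S180 and 7.55 with DMSO, a difference of 0.21. Its other probe gave 0.15. Genes of like signal (272 within 0.5) had a median difference of 0.19, and with quantile normalization Lamp1 was at -0.01. Lamp2, the related glycoprotein that chaperone-mediated autophagy uses, had 5.17 and 5.24, a difference of -0.07. The dimmer Lamp2 probes gave -0.01 and 0.12. Npc1, which exports cholesterol from the lysosome, had 3.59 and 3.40, a difference of 0.18. Mcoln1, the calcium channel that activates the phosphatase of TFEB, had 3.90 and 3.74, a difference of 0.16. A dim second probe of Mcoln1, with processed signals of 56.0 and 90.2, gave -0.40. Scarb2, the receptor that brings glucocerebrosidase to the lysosome, differed by 0.15.

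Of the proteases 3 lay above and 3 below 0, or 2 and 4 with quantile normalization and 4 and 2 with the mean of each gene's probes. Ctsd, the aspartic protease cathepsin D, had 6.60 with S180 and 6.38 with DMSO, a difference of 0.22, and 0.09 with quantile normalization. The cysteine protease gene Ctsb differed by 0.17, and by 0.08 with quantile normalization. Ctsa, which protects other hydrolases, differed by 0.12, and by -0.02 with quantile normalization. The lower ones were Ctsz at -0.04, Tpp1 (a tripeptidyl peptidase) at -0.02 and Ctsl at -0.01. Ctsl was printed in 10 spots on each array, which makes it the best measured of the 47. Its scaled signal was 5.457 ± 0.033 with S180 and 5.467 ± 0.020 with DMSO (mean ± SD of 10 spots), a difference of -0.010 with a standard error of 0.012 over spots, so that the spots of both arrays overlapped. A second, dimmer Ctsl probe gave 0.28.

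The glycosidases, which remove sugars from glycolipids and glycoproteins, lay between -0.11 and 0.09 on their brightest probes. Neu1, a sialidase, had 4.84 and 4.95, a difference of -0.11. Gla (alpha-galactosidase) differed by 0.09, and by -0.02 with quantile normalization, and Hexa (the hexosaminidase alpha subunit) by 0.07. Glb1 (beta-galactosidase) differed by 0.07 and Gaa, which digests glycogen, by 0.01, or -0.04 with quantile normalization. The other measured probes of Glb1 gave -0.13 to 0.06, and that of Gaa gave 0.18. The lipid handling genes were all above 0: Psap, the precursor of the saposins, differed by 0.17, Ppt1, a thioesterase, by 0.09, Npc2, which passes cholesterol to NPC1, by 0.08 and Lipa, the acid lipase, by 0.06.

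The 10 genes with TCACGTG near the start had a median difference of 0.08 (range -0.19 to 0.22), and the 30 searched genes without it had 0.08 as well. For the bare CACGTG the medians were 0.05 with it (12 genes) and 0.09 without it (28 genes). Atg3, the lowest of the 47, held 2 matches, and so did Ctsd, the highest of the lysosomal genes.

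Several probes measured most genes, and they did not always give 1 direction. Of 28 members with more than 1 measured probe, all probes of 17 had the same sign and those of 11 had both signs, that is 60.7% with the same sign beside 57.8% of the 7387 such genes on the array. None of the 94 measured member probes was 1.5-fold apart, against 3.21% of 32679 measured probes at least 1.5-fold higher and 1.67% lower. The other 6 member probes were not well above background on both arrays. Close to that limit, a Ppt1 probe with processed signals of 17.5 with S180 and 21.0 with DMSO was counted, and a Nbr1 probe with 17.6 and 12.5 was not.

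**Figure D3:**
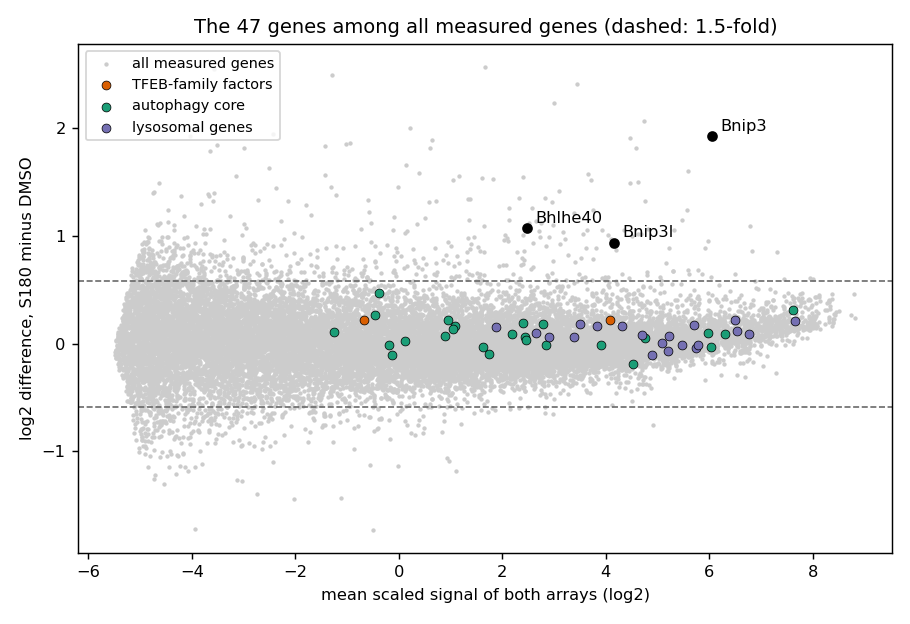
Log2 difference, S180 minus DMSO, against the mean scaled signal of both arrays for all measured genes (grey) and the 47 genes (coloured by class), with dashed lines at 1.5-fold. The 47 lie inside the lines at every signal, and the brightest genes of the array, Sqstm1 and Lamp1 among them, lie as a cloud above 0. Bnip3, Bnip3l and Bhlhe40, from lists chosen with earlier results of these data known, are also marked.

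Further genes of the same pathways, on lists that hold none of the 47, spread around 0. Of 26 measured autophagy genes 0 were 1.5-fold apart, with a median of 0.05. Tmem41b, a scramblase of the endoplasmic reticulum, was highest at 0.37 (3.57 and 3.20) and Atg16l2, a relative of Atg16l1, lowest at -0.28 (-0.01 and 0.27). Of 35 measured lysosomal enzymes 13 lay above 0 and the median was -0.04. Idua, which degrades heparan and dermatan sulfate, was highest at 0.31 and Arsb, a sulfatase, lowest at -0.45 with processed signals of 66.6 and 111. Dpp7, a dipeptidyl peptidase, was bright and lower, at -0.38 (4.53 with S180 and 4.91 with DMSO). So the listed enzymes outside the 47 had a lower median than the lysosomal genes among the 47, which include membrane proteins. Their signals also differed, with median scaled signals with S180 of 2.27 for these enzymes and 5.13 for the lysosomal members. The part of signal in this contrast was not tested. Neither list held a gene 1.5-fold apart.

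Of 24 measured lysosomal membrane genes 12 lay above 0 (median 0.02), from Mfsd8 at -0.35 to Hgsnat, which acetylates heparan sulfate, at 0.27. The proton pump that acidifies the lysosome, the V-ATPase, had 19 measured subunit or accessory genes with a median of 0.05. Atp6v1b2 and Atp6v0c were highest at 0.25 each, and Atp6ap2 was lowest at -0.18. The 23 measured genes of nutrient sensing and delivery to the lysosome had a median of -0.01, from Gnptg, of the enzyme that tags hydrolases with mannose 6-phosphate, at -0.20 to Rraga, a small GTPase that recruits mTORC1, at 0.15. None of the genes in these 5 lists was 1.5-fold apart.

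The list of mitophagy genes, receptors and regulators that lead mitochondria into the same pathway, held large differences. Bnip3 had a scaled signal of 7.01 with S180 and 5.08 with DMSO, 3.81-fold higher, and Bnip3l had 4.62 and 3.69, 1.91-fold higher. The other 6 measured genes of that list, which include the kinase Pink1 and the ubiquitin ligase Park2 beside receptors, lay within 1.5-fold, with Fundc1 lowest at -0.12 and Phb2 at -0.08. Bhlhe40, a basic helix-loop-helix repressor on the list of further regulators, was 2.10-fold higher (3.01 and 1.94). Bnip3, Bnip3l and Bhlhe40 lay at percentiles 99.95, 99.28 and 99.55 of all measured genes. The lists were chosen with earlier results of these data known, so these genes are no yardstick for the 47.

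**Figure D4:**
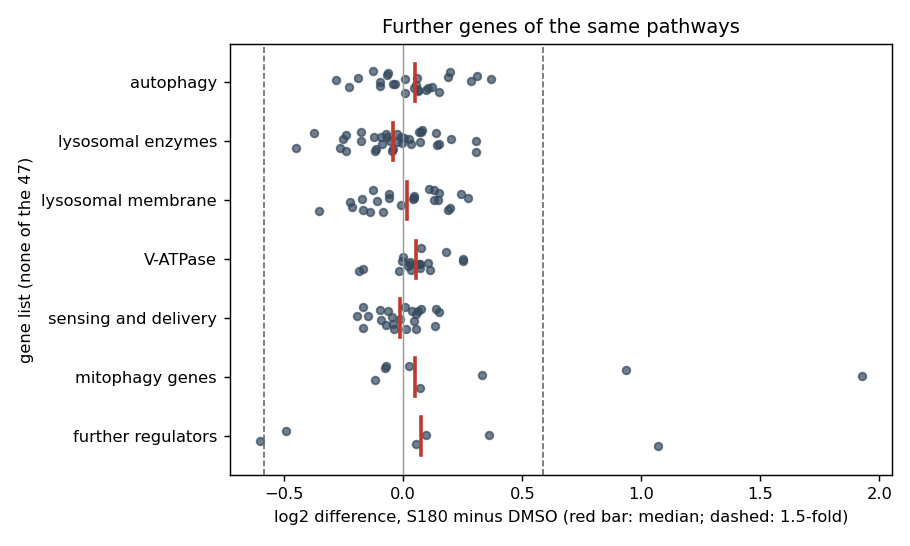
Log2 difference, S180 minus DMSO, of each measured gene on the 7 further lists (points) with the median of each list (red bars) and dashed lines at 1.5-fold. Outside the mitophagy genes Bnip3 and Bnip3l and the regulators Bhlhe40 and Zkscan3, every point lies within 1.5-fold.

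**Figure D5:**
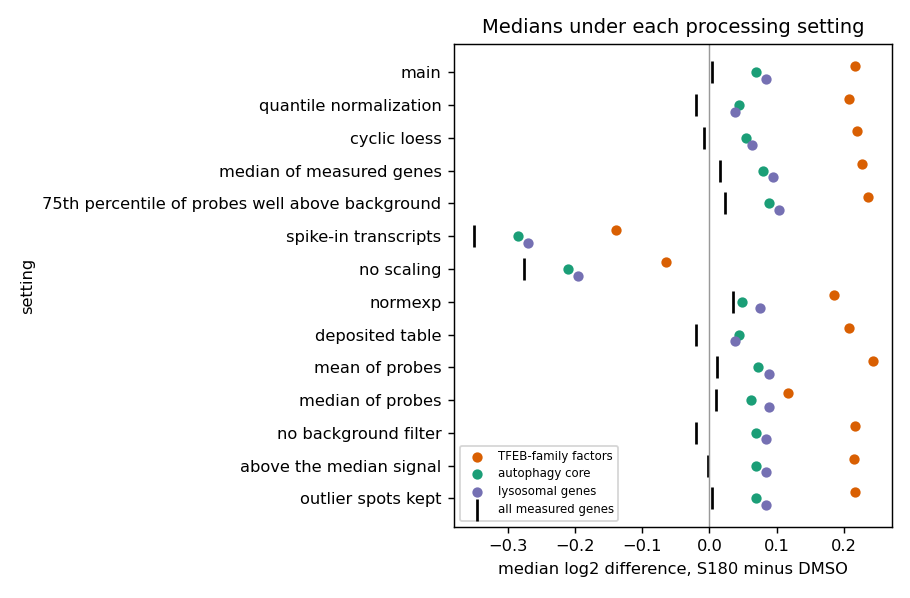
Median log2 difference, S180 minus DMSO, of the 3 classes (coloured points) and of all measured genes (black bars) under the main processing and 13 alternatives. The classes lie above the bar in each setting, while the sign of the medians depends on the scaling: on spike-in transcripts the autophagy core was at -0.29 and all genes at -0.35.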

How the data were processed

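Signals came from 1 S180 array and 1 DMSO array. The authors deposited scanner tables of spot intensity, on a linear scale, made with Agilent Feature Extraction (version 10.7.1.1, per the submitters' processing notes). Per the file headers, the processed intensity was corrected for additive and multiplicative trends across the array, with surrogate values for dim spots. A deposited table of log2 values comes with a method not given in the sources used: 99.7% or more of its probes were within 0.01 of log2 processed signals after quantile normalization. Its median was 5.27 in each column, so that it was not centred, and its columns had the direction of the scanner files.

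Control spots and outlier-flagged spots were left out, the spots of a probe averaged as log2, and the array's 75th percentile subtracted, with Python 3.11.15 and limma 3.58.1 (normexp with offset 50, cyclic loess). Of the 100 member probes 69 had an accession in a RefSeq table of GRCm38.p6, all under the same symbol. Every member could be named. From each further list the 2 highest and 2 lowest genes could be named. Mitf was added after its value was seen, and Pink1 and Park2 were named outside that rule, without values. Alternatives changed the scaling, the background correction, the probe rule, the filters and the fold threshold. The 1.2-fold threshold, the brightness groups as background Tfeb without its upstream probe and the counts beyond spot error under each alternative were chosen after seeing the data. The gene summary was tested on simulated data. The members and lists were chosen with earlier results of these data known. The number of arrays limits the precision.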

Additional observations from a re-analysis of the deposited data

How the results depend on the processing

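No paired analysis was possible because each group has 1 array, and leaving out a replicate was not possible for the same reason. No member passed 1.5-fold, higher or lower, under any of 13 alternatives. In the main setting 3 were higher at 1.2-fold and 0 lower, beside 15.1% and 11.8% of all measured genes. At the lower planned threshold, which lay between 1.2-fold and 1.5-fold, 1 was higher (Atg9a) and 0 were lower. The share of all measured genes was not computed at that threshold, so its count does not set the 47 apart. Scaling decides the sign: on spike-in transcripts the medians were -0.29 for the autophagy core, -0.27 for the lysosomal genes, -0.14 for the factors and -0.26 for all 47, and without scaling -0.21, -0.20, -0.065 and -0.19. On these scales the median of all measured genes was -0.35 and -0.28, so that the 47 stayed 0.09 above it, and the share of measured genes at least 1.5-fold higher was 0.70% and 0.97%, against 14.3% and 9.01% lower. The lysosomal median was 0.0386 after quantile normalization and 0.0385 from the deposited table. The median of the factors was 0.24 with the mean of a gene's probes, 0.12 with their median and 0.0077 without the upstream Tfeb probe. The cause of these changes was not tested, apart from the changed constant in the first 2 settings. The autophagy and lysosomal medians changed order, by 0.006, under quantile normalization and from the deposited table. With only genes above the median signal 40 members were left. Dim probes limit the second values of Tfe3, Ulk1, Mcoln1 and Nbr1. By the spot error of the dim group, those of Tfe3, Ulk1 and Mcoln1 lay within 2 SD. So did the values of Tfec, Arsb and Mfsd8. Beyond 2 SD of the spot error, 22 members were higher and 2 lower in the main setting. On spike-in transcripts these counts were 0 and 42, and without scaling 1 and 37. The shares of all genes beyond that error were not computed on these scales or under the other alternatives. The lower count was 6 with quantile normalization and from the deposited table, and 4 with cyclic loess, normexp, the mean of probes and the median of probes, where 18 to 21 were higher.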
